A study of Mus musculus with 11 samples.

Results

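Genes of the lysosome were examined in CD4 T cells from fibrotic mouse liver, 52 genes in all out of 56748 in the count table. They were chosen by name for their roles, with earlier results of these data known. There were 16 genes of the vacuolar proton pump (V-ATPase), 24 of hydrolases and other proteins of the lumen, 9 of membrane proteins and 3 of the TFEB family of transcription factors. The 24 are called hydrolase genes below, although Psap, Npc2 and Grn among them encode cofactors and carriers of the lumen. All 52 names matched a single gene ID, and all passed the filter on low counts. The 6 libraries with the deletion are labelled ATG5TLymph-/- and called autophagy-deficient by the design text (Atg5-deficient here). The other 5 are labelled wildtype, with the genotype ATG5fl/fl (wild-type here). Mice of both groups received carbon tetrachloride (CCl4), a toxin of hepatocytes, for 5 weeks, so both groups are fibrotic and uninjured liver is not analysed here. The promoter that drives the deletion, the age of the mice and whether each library is 1 mouse were not stated. The p-values therefore reflect the spread between libraries alone, which may be technical. The design text describes flow-sorted cells, whereas the extraction protocol describes sections of fixed, embedded tissue.

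Lysosomes are the acidic compartments in which autophagosomes, endosomes and phagosomes end, and in which their contents are broken down. The V-ATPase pumps protons into the lumen with a membrane sector, V0, and a cytosolic sector that splits ATP, V1. Hydrolases reach the lumen mostly by the mannose 6-phosphate route and work at its low pH. Heavily glycosylated membrane proteins such as LAMP1 and LAMP2 line the organelle, and LAMP2 also takes part in the fusion of autophagosomes with lysosomes and in chaperone-mediated autophagy. TFEB, TFE3 and MITF are related factors that bind E-box sequences in promoters of many lysosomal genes. The kinase mTORC1 holds them in the cytosol when nutrients are plentiful. ATG5 acts before the lysosome, in the conjugation system that attaches LC3 to the growing autophagosome.

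Libraries held 30699408 to 41393205 counted reads in the Atg5-deficient group and 34082853 to 47564440 in the wild-type group. Levels are given in CPM, counts scaled to the size of each library with TMM factors, unless a sum of markers is named, which is relative to total counts. Markers of CD4 T cells summed to 2769 to 4079 CPM across Atg5-deficient libraries and 2735 to 3046 CPM across wild-type libraries. The adjusted p for the sum was 0.141 (exact permutation test), and all Atg5-deficient libraries but replicate 3 lay above the wild-type range. Of the 8 CD4 T cell markers, 1 was called higher, Cd5 (log2 fold change 0.40, adjusted p = 0.0214 in edgeR). Markers of macrophages, monocytes and dendritic cells, in which many lysosomal genes are abundant, summed over 20 genes to 2.51 to 13.5 CPM across Atg5-deficient libraries and 2.48 to 7.48 CPM across wild-type libraries (adjusted p = 0.28, exact permutation test, two-sided). Of these 20 markers, 1 was called higher, Itgax (log2 fold change 2.67, adjusted p = 0.03 in edgeR), and 0 lower. Hepatocyte markers summed to 45.9 to 846 CPM across Atg5-deficient libraries and 33.7 to 481 CPM across wild-type libraries (adjusted p = 0.421, exact permutation test). Cell cycle genes summed to 420 to 930 CPM across Atg5-deficient libraries and 327 to 455 CPM across wild-type libraries, with an adjusted p of 0.121 for the sum (exact permutation test), and 9 of 12 were called higher. Genes of naive T cells summed to 2808 to 4349.7 CPM across Atg5-deficient libraries and 4002 to 5636 CPM across wild-type libraries (adjusted p = 0.141, exact permutation test), and 6 of 10 were called lower. Atg5 itself stood at 19.2 ± 2.51 CPM across Atg5-deficient libraries (SD, n = 6) and 16.9 ± 3.59 CPM across wild-type libraries (SD, n = 5), with a log2 fold change of 0.18 (SE 0.14, adjusted p = 0.488 in edgeR). Since the deleted part is not given, this gene-level count does not check the labels.

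Of the 52 lysosomal genes, 5 were higher and 1 was lower in Atg5-deficient cells. Those higher were Lamp2, the progranulin gene Grn, the beta-galactosidase gene Glb1, the acid sphingomyelinase gene Smpd1 and the transcription factor gene Tfe3, by log2 fold changes of 0.35 to 0.69. The sialidase gene Neu1 was lower, by a log2 fold change of -0.42. A gene was called at an adjusted p under 0.05 in edgeR's quasi-likelihood test over 17987 genes. The called share was 11.5% of the lysosomal genes, against 6.84% of all genes tested in either direction, 4.43% called higher and 2.41% called lower. These shares compare genes of unlike levels, with medians of 29.1 CPM for the lysosomal genes and 7.42 CPM for all genes tested. With a strict filter (1 CPM in 5 libraries), 15.4% of the lysosomal genes and 9.85% of all genes were called. The median log2 fold change was 0.11 over the lysosomal genes, of which 33 were above 0, and 0.00 over all genes tested, of which 49.7% were above 0. The groups did not overlap in Lamp2, Tfe3 and Neu1, 3 of 52 genes, against 4.86% of all genes tested (2.78% higher and 2.08% lower). In bulk libraries, a change in the share of cells of a given state and a change of RNA per cell cannot be told apart.

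**Figure D1:**
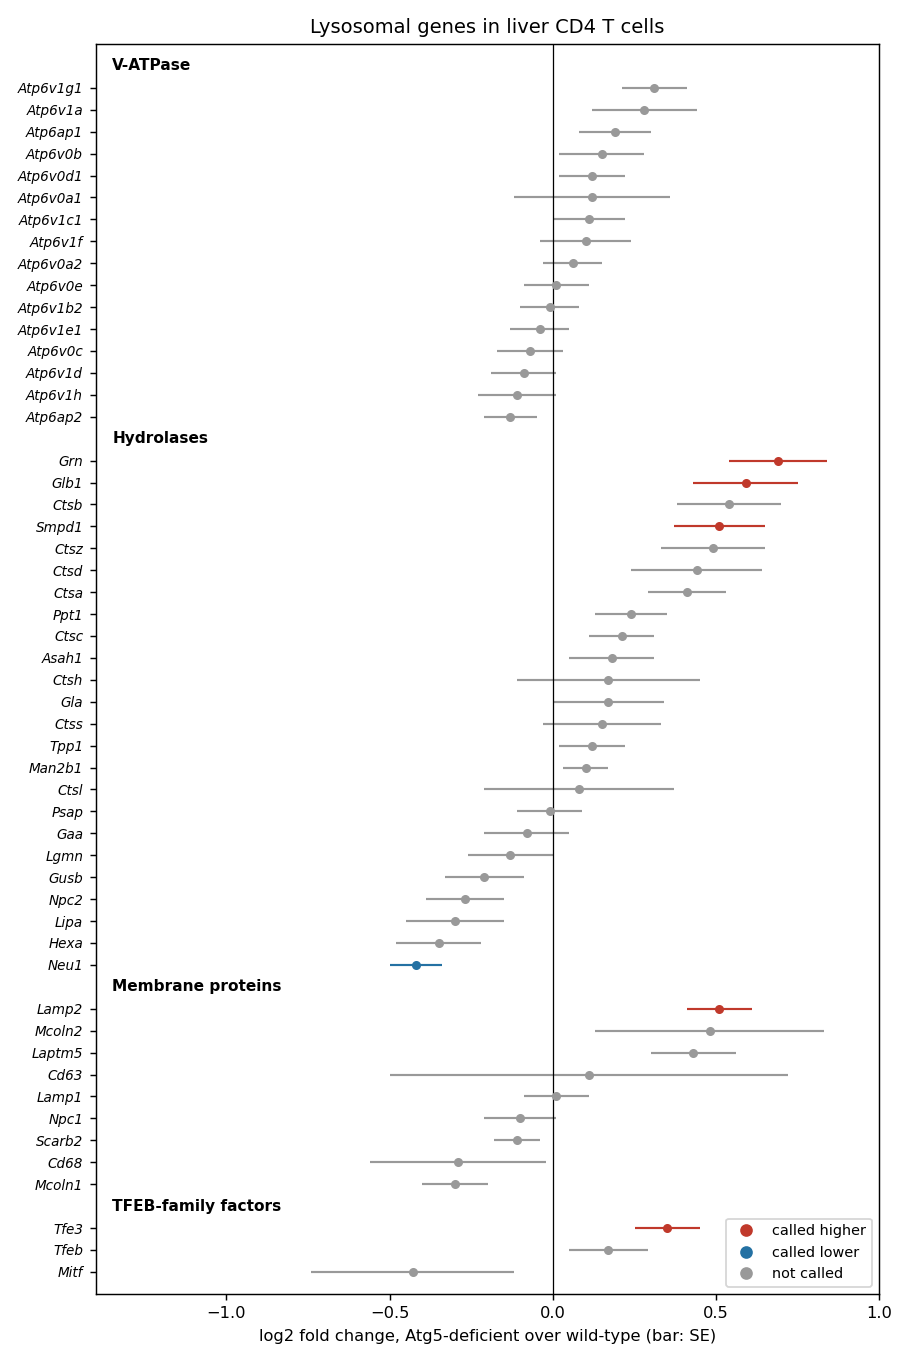
Log2 fold change of each of the 52 lysosomal genes, Atg5-deficient over wild-type, with its standard error as a bar, sorted within the 4 classes; red and blue points were called higher and lower and grey points were not called. The 16 V-ATPase genes lie between -0.13 and 0.31, whereas hydrolases and other proteins of the lumen spread from -0.42 (Neu1) to 0.69 (Grn).

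Lamp2, Grn and Neu1 passed in each of the 11 fits made with 1 library omitted. Smpd1 passed in 3 of them and Glb1 and Tfe3 in 2 each. Without Atg5-deficient replicate 1, 2 or 4, or wild-type replicate 1, 3 or 4, 3 lysosomal genes were called. That was 5.77% of them, against 3.64% to 4.67% of all genes tested in these fits. With hepatocyte markers as a covariate the count stayed at 6, or 11.5%, against 7.56% of all genes. There Smpd1 (log2 fold change 0.50, adjusted p = 0.0502 in edgeR) and Tfe3 (0.35, adjusted p = 0.0508) missed the threshold, and Ctsa (0.43, adjusted p = 0.0492) and Laptm5 (0.48, adjusted p = 0.0289) passed it. With upper-quartile in place of TMM scaling, Lamp2 and Grn were called higher and Neu1 and Mcoln1 lower, 7.69% against 7.06% of all genes. Of all calls in that fit, 46% were higher, against 64.7% with TMM. Atg5-deficient replicate 3 stood apart: it was the lowest library of its group in 31 of the 52 genes, with 10 of 16 V-ATPase and 18 of 24 hydrolase genes among them. How often it was lowest over all genes was not counted. Its sum of cell cycle genes, 420 CPM, lay within the wild-type range, and it was the only Atg5-deficient library of which this was so. The same held for its sum of CD4 T cell markers, 2769 CPM, and it had the fewest counted reads of all libraries, 30699408. The part of each in its low levels was not tested. Without replicate 3, 13 lysosomal genes were called higher and 1 lower, a share of 26.9% against 12.1% of all genes tested in that fit. The 8 genes added were Atp6v1a, Atp6v1g1, Atp6ap1, Ctsa, Ctsb, Ctsd, Ctsz and Laptm5. Replicate 3 was singled out by its low values in these same genes, so more higher calls without it follow in part from that choice. Values without it, here and for single genes below, are a description and no separate support. Among the 8 libraries with consecutive title numbers (5 Atg5-deficient and 3 wild-type), edgeR called 0 lysosomal genes and 0.935% of all genes. There the log2 fold changes were 0.40 for Lamp2, 0.58 for Grn, 0.74 for Glb1, 0.45 for Smpd1, 0.30 for Tfe3 and -0.37 for Neu1. The other libraries, 1 Atg5-deficient and 2 wild-type, were too few for a value of their own.

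**Figure D2:**
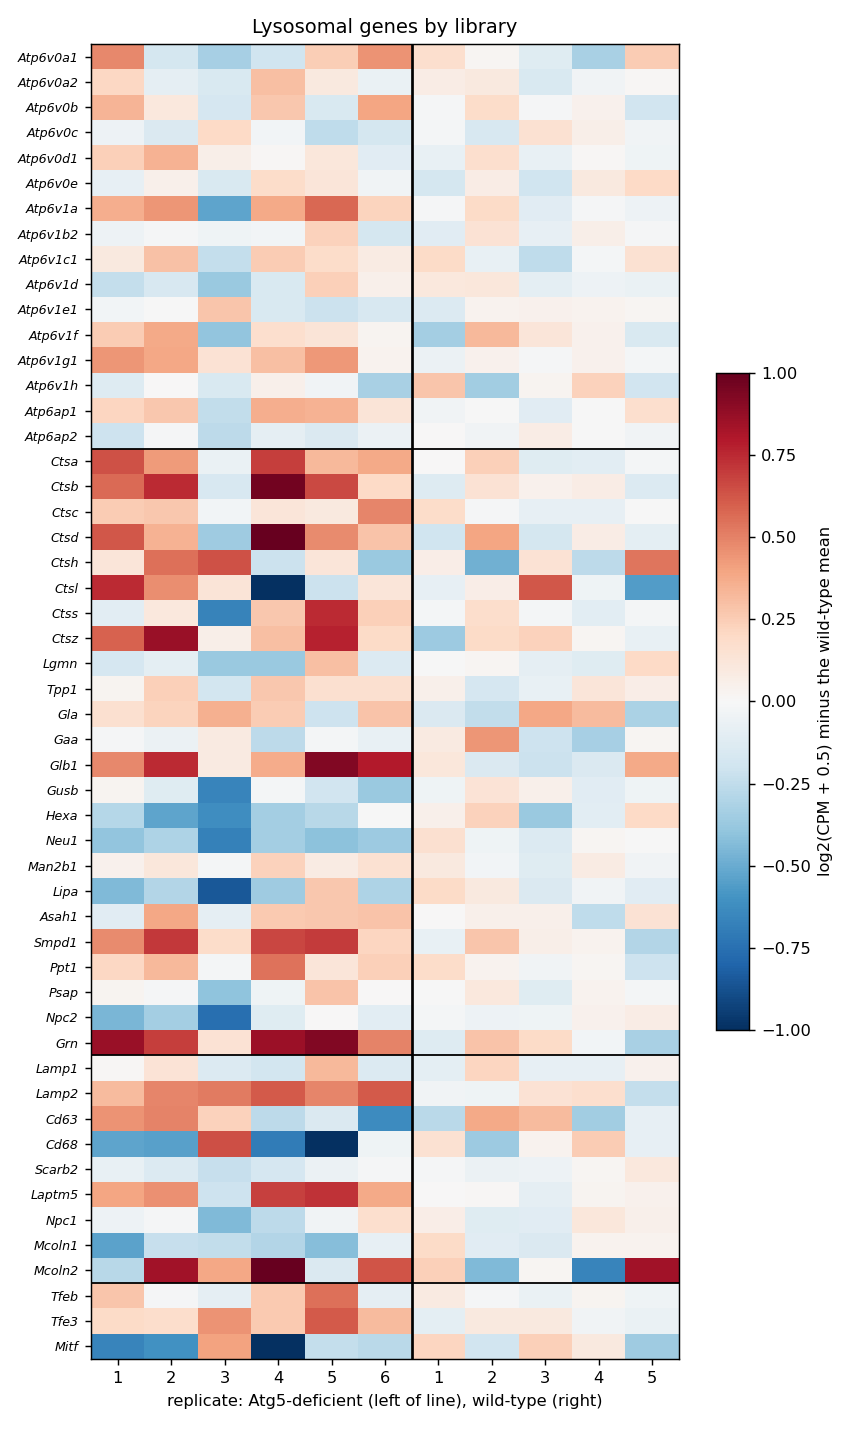
Level of each lysosomal gene in each library, as log2(CPM + 0.5) minus the wild-type mean, with Atg5-deficient replicates 1 to 6 left of the vertical line, wild-type replicates 1 to 5 right of it and horizontal lines between the 4 classes. Neu1 is below the wild-type mean in 6 of 6 Atg5-deficient libraries, and column 3 is the lowest of its group in 31 genes.

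Among the TFEB family, Tfe3 rose. Tfe3 (ENSMUSG00000000134, chromosome X, 7762560 to 7775202, plus strand, GRCm38) had 34.6, 34.3, 41.6, 36.4, 46.5 and 37.8 CPM in Atg5-deficient replicates 1 to 6, against 28.3, 32.5, 32.5, 29.5 and 28.9 CPM in wild-type replicates 1 to 5. Every Atg5-deficient library was above every wild-type library, and replicate 3, low for many other genes, was the second highest. The log2 fold change was 0.35 (SE 0.10, edgeR adjusted p = 0.0433). Tfeb, the best studied regulator of lysosome biogenesis, had 19.3 to 30.5 CPM (median 22.6) in Atg5-deficient libraries, against 22.0, 20.5, 19.7, 21 and 20 CPM in wild-type libraries. The groups overlapped, and the value was 0.17 (SE 0.12, adjusted p = 0.433 in edgeR). Mitf, known best from melanocytes and osteoclasts, was low, with 0.981 to 3.71 CPM (median 1.87) across Atg5-deficient libraries and 1.99 to 3.26 CPM (median 2.91) across wild-type libraries. The log2 change was -0.43 with a wide error (SE 0.31, adjusted p = 0.443 in edgeR). These are RNA levels, and the family is known to be controlled largely by where the protein sits in the cell, which was not measured.

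No V-ATPase gene passed the test. Of 16 genes, edgeR called 0, with 1 at an unadjusted p under 0.05 (against 23.4% of all genes). DESeq2 called 1 (against 11.6% of all genes) and limma-voom 2 (against 18.8% of all genes). Here and below, the DESeq2 share is of the 20130 genes to which DESeq2 gave an adjusted p. Of the 16 log2 fold changes, 10 were above 0 and 6 below, and the median was 0.08. In the V0 sector, which forms the proton path, the 6 values ran from -0.07 to 0.15, and Atp6v0c, the gene of the ring-forming proteolipid, stood at 28.0 ± 3.27 CPM across Atg5-deficient libraries (SD, n = 6) and 29.5 ± 2.39 CPM across wild-type libraries (SD, n = 5). Atp6v0a2 and Atp6v0a1 encode alternative forms of the large membrane subunit. Atp6v0a2 had 88.1 to 121 CPM across Atg5-deficient libraries and 88.1 to 105 CPM across wild-type libraries. Atp6v0a1 had 2.26 to 4.35 CPM across Atg5-deficient libraries and 2.28 to 3.64 CPM across wild-type libraries. The groups overlapped for both.

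In the V1 sector the values ran from -0.11 to 0.31 over 8 genes. Atp6v1g1, of the stalk that joins both sectors, had the smallest p of the class. It had 27.2, 26.1, 22.0, 24.6, 27.0 and 20.3 CPM in Atg5-deficient libraries, against 19.0, 20.5, 19.7, 20.5 and 19.6 CPM in wild-type libraries. Of the Atg5-deficient libraries, 5 were above every wild-type library, and the log2 fold change of 0.31 (SE 0.10) had an edgeR adjusted p of 0.0689. Atp6v1a, the catalytic subunit gene, had 17.9 CPM in Atg5-deficient replicate 3 and 30.4 to 38.9 CPM in the others, against 24.0 to 29.8 CPM in wild-type libraries. The log2 change was 0.28 (SE 0.16, adjusted p = 0.294 in edgeR), and 0.40 (adjusted p = 0.0117) without that library. Its partner in the catalytic ring, Atp6v1b2, stood at 39.0 ± 3.83 CPM across Atg5-deficient libraries and 39.3 ± 2.86 CPM across wild-type libraries. The accessory subunit gene Atp6ap1 had 43.4, 45.1, 31.5, 48.2, 47.6 and 41.0 CPM in Atg5-deficient libraries, against 36.4, 37.3, 34.5, 37.2 and 42.0 CPM in wild-type libraries. Replicate 3 was the lowest of all 11 libraries, and the log2 fold change was 0.19 (SE 0.11, adjusted p = 0.299 in edgeR). Atp6ap2, also known as the prorenin receptor gene, had a value of -0.13 (SE 0.08), with 5 of 6 Atg5-deficient libraries below the wild-type range.

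Of 24 genes of hydrolases and other proteins of the lumen, edgeR called 3 higher, 1 lower and 20 not. Over all genes, 4.43% were called higher and 2.41% lower. Those higher were the enzyme genes Glb1 and Smpd1 and the progranulin gene Grn. Neu1, Glb1 and Ctsa are described first, as their products form a complex in the lysosome in which cathepsin A protects the sialidase NEU1 and beta-galactosidase. Their RefSeq promoters (GRCm38.p6, 250 bases before to 50 after the start of transcription, 5′ to 3′ along each gene's strand) are shown because TFEB-family factors bind CACGTG, the E-box core, which is in capitals. The regions are chr2:164833523-164833822 for Ctsa, chr9:114400828-114401127 for Glb1 and chr17:34931003-34931302 for Neu1, all on the plus strand, and a second Ctsa promoter in the table held no CACGTG.
Ctsa: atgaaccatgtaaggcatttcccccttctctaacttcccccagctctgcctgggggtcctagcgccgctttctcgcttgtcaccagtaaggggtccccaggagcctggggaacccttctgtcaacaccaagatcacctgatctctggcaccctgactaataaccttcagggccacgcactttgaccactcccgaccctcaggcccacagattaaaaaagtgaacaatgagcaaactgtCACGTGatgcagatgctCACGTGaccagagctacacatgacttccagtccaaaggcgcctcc
Glb1: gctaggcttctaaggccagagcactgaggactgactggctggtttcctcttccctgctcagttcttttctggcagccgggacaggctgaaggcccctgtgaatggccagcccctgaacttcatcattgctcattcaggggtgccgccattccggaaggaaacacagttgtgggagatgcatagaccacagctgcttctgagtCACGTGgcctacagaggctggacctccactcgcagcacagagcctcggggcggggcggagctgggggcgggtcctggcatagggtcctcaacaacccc
Neu1: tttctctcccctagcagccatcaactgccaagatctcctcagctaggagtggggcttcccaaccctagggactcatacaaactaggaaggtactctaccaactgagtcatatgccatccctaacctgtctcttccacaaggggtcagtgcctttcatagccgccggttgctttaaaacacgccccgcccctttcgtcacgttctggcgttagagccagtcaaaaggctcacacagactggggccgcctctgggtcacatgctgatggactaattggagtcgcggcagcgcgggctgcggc
The Ctsa window holds the core at 2 places, the Glb1 window at 1 and the Neu1 window at 0.

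Neu1 (ENSMUSG00000007038, chromosome 17, 34931253 to 34935953, plus strand) had 39.4, 41.8, 32.3, 40.8, 38.9 and 40.1 CPM in Atg5-deficient replicates 1 to 6, against 58.1, 50.3, 47.1, 52.4 and 51.8 CPM in wild-type replicates 1 to 5. Every Atg5-deficient library lay below every wild-type library, replicate 3 farthest. It fell by 0.42 on the log2 scale (SE 0.08, edgeR adjusted p = 0.012), and by 0.37 (adjusted p = 0.00631) without replicate 3. Glb1 (ENSMUSG00000045594, chromosome 9, 114401076 to 114474898, plus strand) had 19.2, 23.2, 14.5, 17.8, 26.3 and 24.0 CPM in Atg5-deficient libraries, against 14.8, 12.3, 11.7, 12.3 and 17.9 CPM in wild-type libraries. Wild-type replicate 5 was above Atg5-deficient replicates 3 and 4, so the groups overlapped. The log2 fold change was 0.59 (SE 0.16, edgeR adjusted p = 0.0422). Glb1 shares 165 exonic bases on the same strand with Tmppe, whose count was 89.9% of that of Glb1 and whose own log2 fold change was -0.11 (adjusted p = 0.667 in edgeR). Ctsa had 113, 97.2, 69.0, 117, 90.5 and 94.0 CPM in Atg5-deficient libraries, against 72.6, 85.5, 66.5, 67.2 and 71.4 CPM in wild-type libraries. All but replicate 3 were above every wild-type library, and the value of 0.41 (SE 0.12) missed the threshold (adjusted p = 0.0547 in edgeR).

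Ratios between genes of 1 library do not depend on how libraries are scaled. The pairs were chosen after their values were seen, so they are a description with no test. The log2 ratio of Glb1 to Neu1 was -1.20 to -0.56 in Atg5-deficient and -2.08 to -1.53 in wild-type libraries. That of Ctsa to Neu1 was 1.09 to 1.52 in Atg5-deficient and 0.32 to 0.76 in wild-type libraries. Neither overlapped between groups, and the means differed by 1 and 0.82, with replicate 3 inside the Atg5-deficient range of the first and at the bottom of the second. Neu1, which is in both ratios, did not overlap by itself, and ratios of other gene pairs were not counted for comparison.

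**Figure D3:**
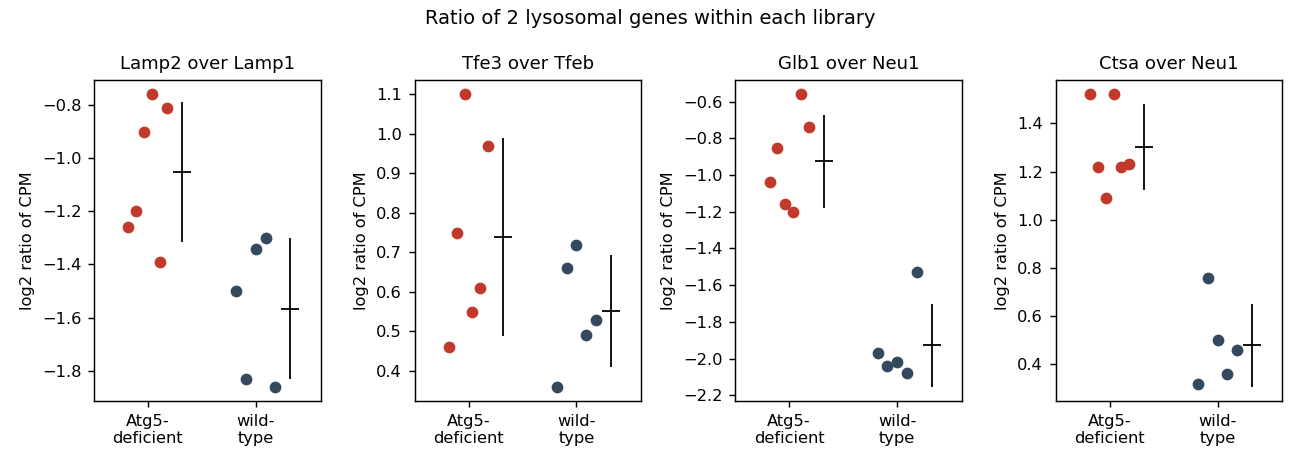
Log2 ratio of CPM between 2 lysosomal genes within each library, Atg5-deficient left and wild-type right in each panel; points are libraries and the bar at the side is the mean and SD (n = 6 and 5). Glb1 over Neu1 and Ctsa over Neu1 do not overlap between groups, Lamp2 over Lamp1 overlaps in 1 Atg5-deficient library and Tfe3 over Tfeb in 3.

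Cathepsin genes were among the most abundant of the hydrolase class, and none passed the test. Over all libraries Ctss (87.6 CPM per kilobase of exon), Psap (77.7) and Ctsd (71.9) were the most abundant of the class per length. Of 10 protease genes, edgeR called 0, with 4 at an unadjusted p under 0.05, all of them above 0 (against 12.7% of all genes with a p under 0.05 and a value above 0). DESeq2 called 3 and limma-voom 4, against 11.6% and 18.8% of all genes. The 4 at an unadjusted p under 0.05 were Ctsa, Ctsb, Ctsd and Ctsz. Ctsb, a cysteine protease, had 155, 176, 93.5, 205, 166 and 120 CPM in Atg5-deficient libraries, against 95.7, 116, 108, 110 and 95.2 CPM in wild-type libraries. Replicate 3 lay below every wild-type library and the other 5 above all of them, so the log2 fold change of 0.54 (SE 0.16, edgeR adjusted p = 0.0635) became 0.65 (adjusted p = 0.00463) without it. Ctsd, the main aspartic protease, had 109 to 285 CPM (median 186) in Atg5-deficient libraries, against 122, 184, 124, 147 and 131 CPM in wild-type libraries. Its value was 0.44 (SE 0.20, adjusted p = 0.203 in edgeR). Of its 2351 exonic bases, Ctsd shares 808 on the same strand with Gm49369. The count of Gm49369 was 58.5% of that of Ctsd, and its log2 fold change was 0.41 (adjusted p = 0.221 in edgeR). Ctsz, a carboxypeptidase, had 26.8 to 47.2 CPM (median 35.3) across Atg5-deficient libraries and 19.8 to 30.2 CPM (median 26.0) across wild-type libraries, with a value of 0.49 (SE 0.16, adjusted p = 0.075 in edgeR). Ctss and Ctsc, which act on class II invariant chain and on granule protease precursors, had values of 0.15 (SE 0.18) and 0.21 (SE 0.10). Lgmn, the asparaginyl protease gene, was the only protease gene below 0 (-0.13, SE 0.13). Ctsh and Ctsl, at 2.69 to 12.5 CPM as group means, had SEs of 0.28 and 0.29 and were poorly resolved.

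Among the genes of sphingolipid breakdown, Smpd1 and Glb1 rose and the others described here did not pass the test. Smpd1 (ENSMUSG00000037049, chromosome 7, 105554360 to 105558389, plus strand), whose enzyme splits sphingomyelin into ceramide, had 17.4, 20.5, 14.1, 20, 20.4 and 14.4 CPM in Atg5-deficient libraries, against 11.7, 15.1, 12.9, 12.7 and 10 CPM in wild-type libraries. Replicates 3 and 6 lay within the wild-type range and the others above it (log2 fold change 0.51, SE 0.14, edgeR adjusted p = 0.0424). Asah1, whose enzyme acts next and splits ceramide, had a value of 0.18 (SE 0.13), and Psap, the precursor of the saposin cofactors, -0.01 (SE 0.10). Hexa, a chain of beta-hexosaminidase, had 14.5 to 22.5 CPM (median 18) across Atg5-deficient libraries and 17.3 to 26.5 CPM (median 23.3) across wild-type libraries, with a value of -0.35 (SE 0.13, adjusted p = 0.126 in edgeR). The cholesterol-handling genes Npc2, Lipa and Npc1 had values of -0.27 (SE 0.12), -0.30 (SE 0.15) and -0.10 (SE 0.11). Of these, Npc2 and Lipa were each below every wild-type library in 5 of 6 Atg5-deficient libraries. In Atg5-deficient replicate 5, Npc2 (145 CPM) was within the wild-type range and Lipa (54.2 CPM) above it.

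Of the 52 genes, Grn had the largest log2 fold change. Grn (ENSMUSG00000034708, chromosome 11, 102430315 to 102437048, plus strand) encodes progranulin, a secreted glycoprotein that lysosomes cleave into granulins. It had 33.9, 30.0, 20.4, 33.6, 35.4 and 26.1 CPM in Atg5-deficient libraries, against 16.8, 22.5, 21.1, 18 and 14.6 CPM in wild-type libraries. Replicate 3 was within the wild-type range and the other 5 were above it, and the log2 fold change was 0.69 (SE 0.15, edgeR adjusted p = 0.0171). Macrophages also express Grn. With the summed markers of macrophages, monocytes and dendritic cells as a covariate, its value was 0.66 (adjusted p = 0.0366 in edgeR), and Lamp2, Glb1, Tfe3 and Neu1 passed as well, 5 lysosomal genes against 4.76% of all genes, while Smpd1 missed the threshold (0.48, adjusted p = 0.0834). The glycosidase genes Gaa, Gla, Gusb and Man2b1 had values from -0.21 to 0.17, and Tpp1, Ppt1 and Lgmn from -0.13 to 0.24, with none called by edgeR. Of these 7 genes, limma-voom called Ppt1 higher (0.30, adjusted p = 0.0493). Ppt1 shares 129 exonic bases with Cap1 on the other strand, which had many more reads.

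Of the membrane proteins, Lamp2 rose and Lamp1 did not pass the test. LAMP1 and LAMP2 are the most abundant glycoproteins of the lysosomal membrane and partly replace each other in mice. Their promoters (RefSeq, GRCm38.p6) are shown with CACGTG in capitals, since they differ in it: chrX:38456411-38456710, minus strand, for Lamp2 and chr8:13158911-13159210, plus strand, for Lamp1.
Lamp2: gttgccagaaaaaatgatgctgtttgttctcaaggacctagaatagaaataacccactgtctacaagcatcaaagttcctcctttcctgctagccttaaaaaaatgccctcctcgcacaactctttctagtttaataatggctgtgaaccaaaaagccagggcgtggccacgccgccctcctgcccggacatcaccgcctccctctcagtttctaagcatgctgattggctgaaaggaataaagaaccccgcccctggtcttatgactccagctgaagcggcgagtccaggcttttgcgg
Lamp1: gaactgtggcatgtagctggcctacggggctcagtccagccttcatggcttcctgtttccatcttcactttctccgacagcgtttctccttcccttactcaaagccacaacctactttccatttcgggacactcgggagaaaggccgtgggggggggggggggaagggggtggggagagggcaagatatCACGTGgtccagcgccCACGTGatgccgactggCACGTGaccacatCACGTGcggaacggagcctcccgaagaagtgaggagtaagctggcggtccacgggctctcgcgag
The Lamp1 window holds the core at 4 places upstream of the start of transcription, and the Lamp2 window at 0.

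Lamp2 (ENSMUSG00000016534, chromosome X, 38401357 to 38456454, minus strand) had 28.9, 32.6, 33.4, 35.6, 32.7 and 35.6 CPM in Atg5-deficient replicates 1 to 6, against 22.6, 22.4, 25.6, 26.1 and 19.5 CPM in wild-type replicates 1 to 5. Every Atg5-deficient library was above every wild-type library, replicate 3 included. The log2 fold change was 0.51 (SE 0.10, edgeR adjusted p = 0.00936), the smallest adjusted p of the 52 genes. Counts per gene do not tell apart the known splice forms of Lamp2, of which LAMP2A serves chaperone-mediated autophagy. Lamp1 had 69.1, 75.3, 62.3, 60.4, 85.9 and 62.3 CPM in Atg5-deficient libraries, against 64.1, 79.5, 64.8, 64.6 and 70.8 CPM in wild-type libraries, and 1 Atg5-deficient library lay above and 3 lay below the wild-type range. The log2 change was 0.01 (SE 0.10, adjusted p = 0.97 in edgeR). The log2 ratio of Lamp2 to Lamp1 was -1.39 to -0.76 in Atg5-deficient and -1.86 to -1.30 in wild-type libraries, and 5 of 6 Atg5-deficient libraries were above the wild-type range.

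None of the other 7 membrane protein genes passed the main test in edgeR. DESeq2 called Laptm5 higher (against 11.6% of all genes), and limma-voom called Laptm5 higher and Mcoln1 and Cd68 lower (against 18.8%). With all libraries, edgeR called Laptm5 with no filter, the strict filter or the hepatocyte covariate, and Mcoln1 with upper-quartile scaling. Laptm5, which encodes a lysosomal protein of haematopoietic cells that in mouse lowers T cell receptor levels at the surface, had the highest level of the 52 genes per length (193 CPM per kilobase of exon over all libraries). It had 807, 842, 531, 986, 1013 and 799 CPM in Atg5-deficient libraries, against 616, 619, 576, 627 and 633 CPM in wild-type libraries. Replicate 3 was below every wild-type library and the other 5 were above (log2 fold change 0.43, SE 0.13, edgeR adjusted p = 0.0612, and 0.53 with adjusted p = 0.00186 without replicate 3). Mcoln1, the gene of the lysosomal calcium channel that can activate TFEB through calcineurin, had 23.7, 29.4, 29.0, 28.1, 25.6 and 32.6 CPM in Atg5-deficient libraries, against 39.4, 31.8, 31.2, 35.3 and 35.4 CPM in wild-type libraries. All Atg5-deficient libraries but replicate 6 were below the wild-type range, and the value was -0.30 (SE 0.10, adjusted p = 0.0766 in edgeR). Its relative Mcoln2 had 2.30 to 7.10 CPM across Atg5-deficient libraries and 1.65 to 5.58 CPM across wild-type libraries (log2 fold change 0.48, SE 0.35). Scarb2, the receptor that carries beta-glucocerebrosidase to lysosomes, had a value of -0.11 (SE 0.07).

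Cd68 and Cd63 are often used as markers of macrophages and of secretory lysosomes. Cd68 had 6.54, 6.49, 15.4, 5.75, 4.34 and 9.35 CPM in Atg5-deficient libraries, against 10.8, 7.42, 9.91, 11.6 and 9.12 CPM in wild-type libraries (log2 fold change -0.29, SE 0.27, adjusted p = 0.561 in edgeR). Replicate 3 had the highest level of all 11 libraries, and without it the value was -0.59 (adjusted p = 0.0639). The 10 macrophage markers summed to 5.70, 6.59, 3.75, 2.95, 1.33 and 1.56 CPM in Atg5-deficient libraries, against 2.15, 3.16, 3.57, 2.17 and 1.31 CPM in wild-type libraries. Replicate 3, highest for Cd68, was the third highest of these sums. Cd63 was near the limit of counting, at 0.0525 to 0.708 CPM across Atg5-deficient libraries and 0.171 to 0.613 CPM across wild-type libraries, and its lowest library had 2 reads, under the limit of 3 reads that a count of 0 allows.

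**Figure D4:**
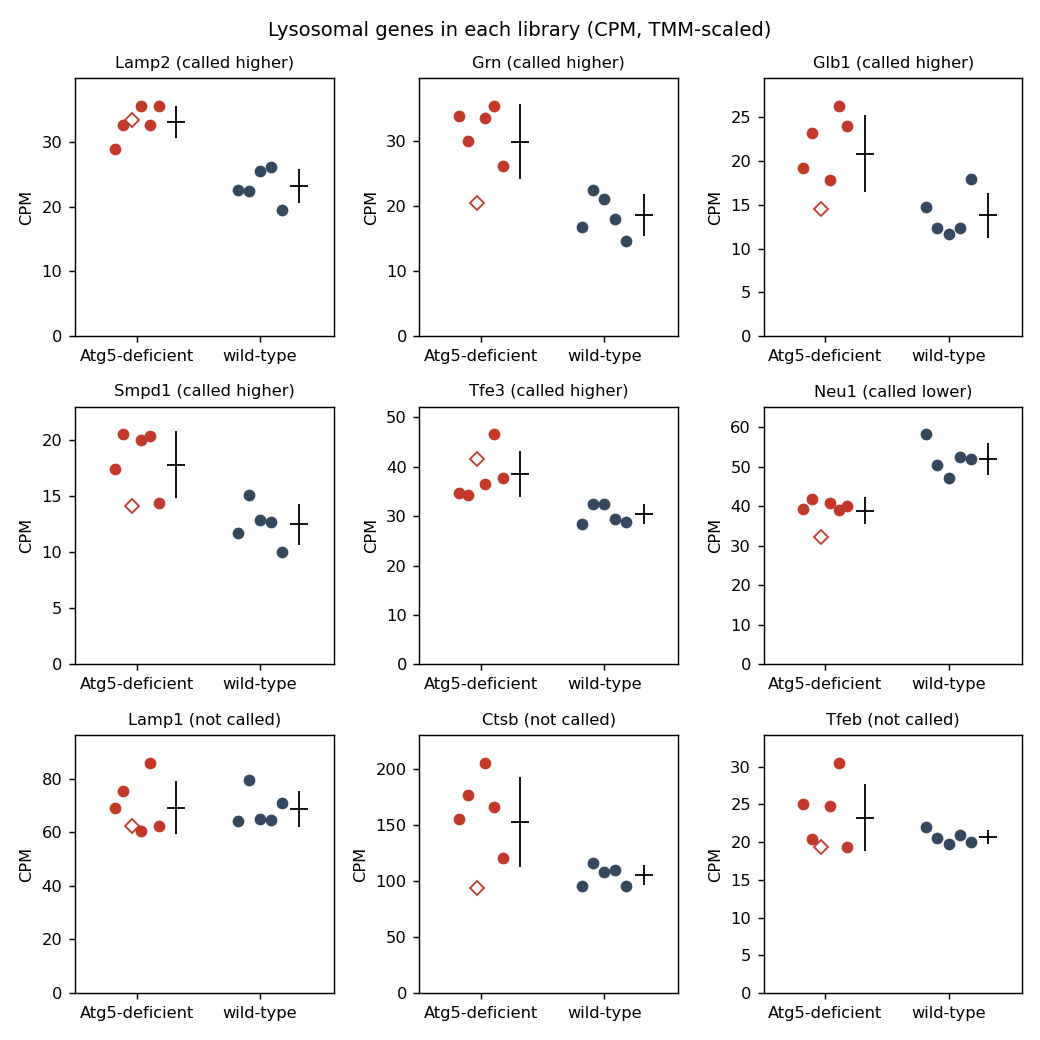
Level in CPM of 9 lysosomal genes in each library, Atg5-deficient left and wild-type right in each panel, with the mean and SD at the side (n = 6 and 5); the open diamond is Atg5-deficient replicate 3 and axes start at 0. Lamp2, Tfe3 and Neu1 do not overlap between groups, whereas in Grn, Smpd1, Glb1 and Ctsb the open diamond lies within or below the wild-type range.

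Across the 52 genes, RefSeq promoters were found for 43. CACGTG (its own reverse complement, so both strands are searched at once) was present in 14 of them, or 32.6%, against 8.09% of the 27025 genes in the promoter table. The longer TCACGTG, searched on both strands and always containing CACGTG, was present in 12, or 27.9%, against 4.29%. By class, CACGTG was found in 4 of 11 V-ATPase, 7 of 21 hydrolase, 3 of 8 membrane protein and 0 of 3 TFEB-family promoters. Of the 6 called genes, Glb1 alone had it. The median log2 fold change was 0.14 over the 14 genes with the core (1 called) and 0.10 over the 29 without it (5 called). Presence of the letters is a description of the window and not of binding.

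Other genes of the lysosome and its control, 111 in 6 further lists, gave 4 higher and 2 lower calls among 102 tested, a share of 5.88% against 6.84% of all genes. Among 28 further hydrolases and lumenal proteins, Ggh, a gamma-glutamyl hydrolase, rose to 10.4 ± 2.24 CPM in Atg5-deficient libraries (SD, n = 6), against 6.63 ± 0.70 CPM in wild-type libraries (SD, n = 5; log2 fold change 0.65, SE 0.16). Acp2, a lysosomal acid phosphatase, rose to 8.27 ± 0.636 CPM in Atg5-deficient libraries, against 5.76 ± 0.435 CPM in wild-type libraries (0.52, SE 0.13). Neither overlapped between groups, and they passed in 4 and 5 of the 11 fits that left out 1 library. Of 20 further membrane proteins, the transporter gene Abca2 (0.32, SE 0.09) and the acetyltransferase gene Hgsnat (0.33, SE 0.09) rose, each in 1 of the 11 fits. The two-pore channel gene Tpcn1 fell by 0.36 on the log2 scale (SE 0.10), in 4 of them. Of the sorting route, Gga3, an adaptor for mannose 6-phosphate receptors, fell to 52.7 ± 3.42 CPM in Atg5-deficient libraries, against 64.4 ± 3.70 CPM in wild-type libraries (-0.29, SE 0.07).

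In 3 of those lists edgeR called 0 genes. For the 10 tested V-ATPase subunits and assembly factors, 2 had an unadjusted p under 0.05, and DESeq2 called 1 and limma-voom 2. For the 20 tested genes of mTORC1 and TFEB control at the lysosome, which include the Ragulator, Rag and folliculin genes, 4 had an unadjusted p under 0.05, and DESeq2 called 0 and limma-voom 4. For the 14 of the HOPS and RAB7 fusion machinery, which joins autophagosomes to lysosomes, these counts were 4, 1 and 3. Over all genes tested, 23.4% had an unadjusted p under 0.05 in edgeR and limma-voom called 18.8%. DESeq2 called 11.6% of the 20130 genes to which it gave an adjusted p. The medians of the 3 lists were 0.14, 0.07 and 0.07 on the log2 scale.

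Cell cycle and naive T cell genes differed between the groups too, and their part in these results cannot be told apart from genotype. With the summed cell cycle genes as a covariate, which by themselves separated 5 of 6 Atg5-deficient from all wild-type libraries, edgeR called 0 lysosomal genes higher and 2 lower, Neu1 and Npc2, and 2.14% of all genes. Lamp2 then had a log2 fold change of 0.58 (adjusted p = 0.0839 in edgeR) and Grn one of 0.35 (adjusted p = 0.563). The sign changed for 22 of the 52 genes, and the median over all 52 was -0.08, against 0.11 without the covariate. With the naive T cell genes as a covariate, Glb1 was the only call, against 1.83% of all genes. Lamp2 and Neu1 had values of 0.49 and -0.34, and the sign changed for 9 of the 52 genes. Both covariates were added after the data were seen.

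**Figure D5:**
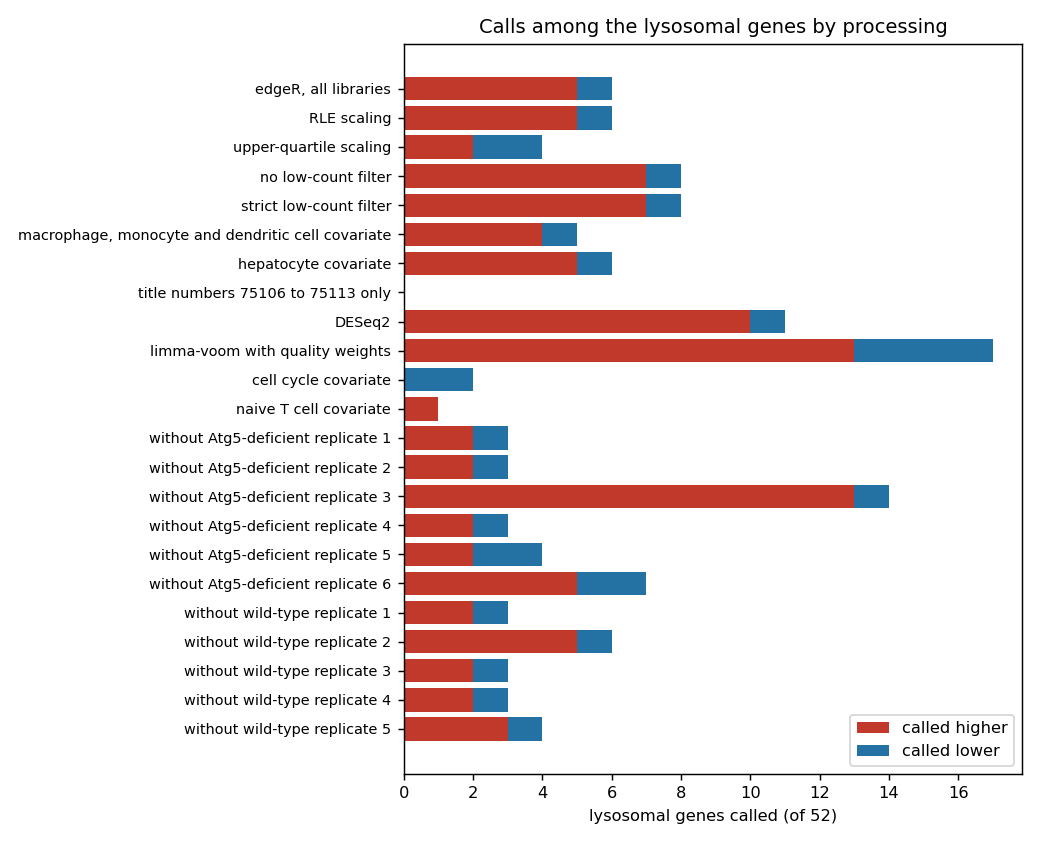
Number of the 52 lysosomal genes called higher (red) and lower (blue) in Atg5-deficient over wild-type libraries under each processing, each covariate and with each library left out. The count is 6 with all libraries, 14 without Atg5-deficient replicate 3, 0 in the libraries with consecutive title numbers and 17 with limma-voom. The share of all genes called moved too, at 6.84%, 12.1%, 0.935% and 18.8% in the same order.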

How the data were processed

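Per the submitters' processing notes, reads were aligned with STAR and counted with featureCounts on GRCm38. The deposited values are raw counts, with Ensembl genes in rows and libraries in columns. Versions, annotation release, strand setting and handling of duplicate or multimapping reads were not stated. The labels name a stranded total RNA kit. Antisense Gm47123 shares 1742 exonic bases with Ctsl and had 0.0794% of its count. The table had 0 columns of other samples. Of 56748 row IDs, 52125 matched GENCODE M21 (GRCm38), the source of symbols, coordinates and exonic lengths, and 41446 had a read.

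Genes were filtered with filterByExpr (minimum count 10, minimum total 15), scaled by TMM and tested for genotype with edgeR (glmQLFit, robust, and glmQLFTest) over 17987 genes, with Benjamini-Hochberg adjustment. The SE is the log2 fold change divided by the root of F. The biological coefficient of variation was 0.341. The test was checked on simulated data. Single library values were compared by exact permutation (462 regroupings, smallest p 0.00216, adjusted over 14 values). The limit of 3 reads corresponds to 0.0631 to 0.0977 CPM, counting error only. Libraries within a group were distinct, with chi-square values per degree of freedom of 14.1 to 188 between pairs. Wild-type replicates 1, 4 and 5 were closest, at 14.1 to 21.1 from one another and 109 to 188 from wild-type replicates 2 and 3. Pairs of Atg5-deficient libraries ran from 37.4 to 136. Replicates were numbered in accession order and pair nothing.

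The 52 genes, their classes and the further lists were chosen with earlier results of these data known. Full values were given for called genes, the TFEB family and the 3 genes of each class with the smallest p, and for other genes chosen after their values were seen. The hepatocyte list had 7 of its 8 genes matched. The versions were edgeR 4.0.16, DESeq2 1.42.0 and limma 3.58.1 under R 4.3.3. Alternatives were DESeq2, limma-voom with quality weights, scaling by RLE or the upper quartile, no and a strict filter (1 CPM in 5 libraries), macrophage, monocyte and dendritic cell or hepatocyte covariates, the libraries with consecutive title numbers, and each library left out. Cell cycle and naive T cell covariates were added after the data were seen.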

Additional observations from a re-analysis of the deposited data

Results flagged for a closer look

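In each of 104 sets of values (52 genes in 2 groups), the highest and lowest library were compared with the rest of their group, and 6 lay far from it (a gap to the nearest library above Dixon's 95% critical value). Chance flags about 1 in 20 such groups. Neu1 was 32.3 CPM in Atg5-deficient replicate 3, against 38.9 to 41.8 CPM in the other 5, all of which were below the wild-type range too. Atg5-deficient replicate 5 was high for Atp6v1b2 (46.2 CPM, against 34.7 to 38.8 CPM in the others) and for Lgmn (21.1 CPM, against 13.1 to 15.9 CPM). Wild-type replicate 1 was low for Atp6v1e1 (41.7 CPM, against 46.3 to 47.1 CPM) and high for Ctsc (42.4 CPM, against 35.2 to 37.3 CPM). Wild-type replicate 2 was high for Ctss (126 CPM, against 104 to 110 CPM). None of these libraries changes the call of its gene.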

How the results depend on the processing

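With all libraries, 6 lysosomal genes (5 higher, 1 lower) and 1231 of all genes (797 higher, 434 lower) were called. Leaving out 1 library gave 3 to 14 lysosomal genes (2 to 13 higher, 1 to 2 lower) and 642 to 2143 of all genes (402 to 1410 higher, 191 to 733 lower). The 14 came without Atg5-deficient replicate 3, which had been singled out by its low values in these same genes. The libraries with consecutive title numbers gave 0 lysosomal genes (0 higher, 0 lower) and 176 of all genes (87 higher, 89 lower), with fewer samples. DESeq2 called 11 lysosomal genes (10 higher) and 2330 of all genes (1364 higher, 966 lower), and limma-voom 17 (13 higher, 4 lower) and 3382 (1941 higher, 1441 lower). Upper-quartile scaling called 2 lysosomal genes higher and 2 lower, and 584 of all genes higher and 685 lower, so that 46% of calls were higher against 64.7% with TMM. The macrophage, monocyte and dendritic cell covariate left 509 of all genes higher. The cell cycle covariate, added after the data were seen, gave 2 lysosomal genes (0 higher, 2 lower) and 385 of all genes (259 higher, 126 lower). It turned the sign of 22 of the 52 log2 fold changes, and among the 13 genes chosen by rule those of Glb1 (-0.07), Tfeb (-0.02), Mitf (0.34), Atp6v1a (-0.47), Atp6ap1 (-0.22) and Laptm5 (-0.12). The naive T cell covariate, also added later, gave 1 lysosomal gene (1 higher, 0 lower) and 329 of all genes (99 higher, 230 lower). Beyond the fewer samples, the cause was not tested. Over those 13 genes (the called ones, the TFEB family and the 3 of each class with the smallest p) and all alternatives, 216 values kept direction and side of the threshold, 48 lost the call, 16 gained one and 6 turned. Among the other genes, limma-voom gained calls of Ctsa, Ctsb, Ctsd, Ctsz, Ppt1, Npc2 and Cd68. Of these, DESeq2 also called Ctsa, Ctsb and Ctsz, and edgeR with no filter called Ctsa and Ctsz. The strict filter and the hepatocyte covariate gave Ctsa, and the cell cycle covariate gave Npc2. With the naive T cell covariate, 9 of the 52 turned. No paired analysis was possible because the labels carry no replicate numbers. Depth limits Cd63 and Mitf most.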
